A study of Mus musculus with 4 samples.

Results

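The 10 genes described here encode proteins that coat lipid droplets (Plin2, Plin3 and Plin5), hydrolyse the fat in them (Pnpla2, Lipe and Mgll), regulate that hydrolysis (Abhd5 and G0s2), or govern the uptake of fatty acids from outside the cell (Cd36 and Angptl4). They were chosen by symbol, with earlier results of these data known. All 10 were found among the 25522 genes of the table without tetracycline and the 26085 genes of the table with tetracycline. RNA was sequenced from small intestinal crypts of male C57BL/6J mice aged 9 weeks, and the cells are labelled as small intestinal epithelial cells. The 4 groups were fed mice without tetracycline, mice fasted for 24 h without tetracycline, fed mice given the antibiotic tetracycline for 21 days, and mice given tetracycline for 21 days and fasted for 24 h, with 1 labelled sample in each. The labels name no other allele or agent. The design text gives as the question how depletion by tetracycline of what it abbreviates as AKK acts on gene expression in the 2 feeding states.

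Cells store surplus fatty acids as triglyceride in lipid droplets, and enterocytes, the absorptive cells of the gut lining, fill and empty such droplets as dietary fat passes through them. Perilipins coat the droplet surface and control the access of lipases. Pnpla2 (adipose triglyceride lipase) removes the first fatty acid from triglyceride, Lipe (hormone-sensitive lipase) acts mainly on the diglyceride that is left, and Mgll (monoglyceride lipase) splits the remaining monoglyceride. Abhd5 switches Pnpla2 on and G0s2 switches it off. Several of these genes are known targets of the fatty acid-sensing PPAR receptors, which bind a direct repeat in DNA.

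Because these genes share known regulators, their promoters were searched for the letters AGGTCANAGGTCA (the PPAR direct repeat, with up to 2 mismatches outside the N) and TGTTTAC (the core bound by forkhead factors, with 0 mismatches), on both strands. RefSeq start sites on GRCm38.p6 gave windows of 300 bases, 250 before and 50 after the start, for 9 of the 10 genes (12 windows), and Angptl4 was not in the table of start sites used here. The direct repeat was found in 2 of the 12 windows, in Plin2 and Cd36, against 3.86% of all 32851 windows. The forkhead core was found in 2 windows, in Mgll and in the second start of Lipe, against 3.65% of all windows. Below are the 250 bases before the start of Plin2 (chr4:86670060-86670309, minus strand), Cd36 (chr5:17835897-17836146, minus strand), Mgll (chr6:88724162-88724411, plus strand) and the second start of Lipe (chr7:25390113-25390362, minus strand), 5′ to 3′, shown because they hold the 4 matches. Capitals mark the match, which starts 225, 63, 241 and 119 bases before the start and has 2, 2, 0 and 0 mismatches. It reads along the gene's own strand in Lipe and on the opposite strand in the other 3.
Plin2: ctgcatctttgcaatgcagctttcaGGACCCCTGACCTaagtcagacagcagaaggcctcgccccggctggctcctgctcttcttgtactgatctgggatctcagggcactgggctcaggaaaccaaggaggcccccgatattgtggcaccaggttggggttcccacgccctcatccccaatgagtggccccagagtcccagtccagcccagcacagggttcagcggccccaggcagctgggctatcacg
Cd36: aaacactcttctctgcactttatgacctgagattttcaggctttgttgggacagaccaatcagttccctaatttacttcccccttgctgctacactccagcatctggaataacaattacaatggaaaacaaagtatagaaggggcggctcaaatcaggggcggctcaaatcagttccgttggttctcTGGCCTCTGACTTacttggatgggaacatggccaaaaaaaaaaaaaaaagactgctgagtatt
Mgll: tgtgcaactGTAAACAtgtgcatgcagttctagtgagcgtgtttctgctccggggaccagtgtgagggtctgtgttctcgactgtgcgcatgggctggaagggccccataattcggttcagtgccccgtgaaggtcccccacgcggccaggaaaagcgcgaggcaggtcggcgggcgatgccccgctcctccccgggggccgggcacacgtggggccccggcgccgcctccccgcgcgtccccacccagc
Lipe: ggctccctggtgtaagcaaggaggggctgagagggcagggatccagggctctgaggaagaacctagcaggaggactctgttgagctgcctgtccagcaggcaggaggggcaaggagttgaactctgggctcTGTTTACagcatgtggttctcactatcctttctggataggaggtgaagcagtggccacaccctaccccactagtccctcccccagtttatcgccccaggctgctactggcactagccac
A match is a run of letters, not evidence of binding.

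The values came from the authors' deposited tables of fasted against fed mice, 1 table without and 1 with tetracycline, whose means summed to 65863261 and 65327199 normalized counts. Whole counts worked out from those columns showed 4 libraries per table, 2 fasted and 2 fed, where the labels list 1 sample per group. The libraries are numbered 1 and 2 within a feeding state by descending size factor, the depth scale by which counts were divided, and this ranged from 0.930 to 1.09 without and from 0.727 to 1.27 with tetracycline. They cannot be tied to the labelled samples, so they are given as single values with no SD, library 1 before library 2. Nothing says that they came from separate animals, so the p-values measure the spread between libraries, which may be technical. All 6 epithelial markers were listed, at summed means of 492620 to 570950 normalized counts without and 447631 to 466245 with tetracycline. No column names the direction of change: the tables' names put the fasted state first, so positive values were taken as higher in fasted mice, and each direction below depends on that.

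Fasting without tetracycline came with higher levels of 5 of the 10 genes, namely Mgll, Angptl4, Cd36, Plin5 and G0s2, by 3.59-fold to 9.17-fold at an adjusted p under 0.05 (DESeq2 in the authors' deposited table). For comparison, 2.27% of the 18100 tested genes were called in either direction and 1.06% were called higher. The 10 genes were chosen with earlier results known, so the shares given here do not test the list. With tetracycline 3 of the 10 genes, Plin5, Angptl4 and Mgll, were called higher by 8.22-fold to 14.4-fold, where 0.600% of the 17993 tested genes were called and 0.333% were called higher. At an unadjusted p under 0.05 it was 5 of the 10, Cd36 and G0s2 being the other 2, and 2.27% of tested genes were higher at that level. The 3 were called in both tables, as were 0.370% of the genes tested in both, and Plin2, Plin3, Pnpla2, Lipe and Abhd5 were called in neither. The median log2 change of the 10 genes was 1.10 without and 0.85 with tetracycline, against 0.0067 and -0.018 over all tested genes. Each median of the 10 lies in a gap. Without tetracycline the 5 called genes changed by 1.84 to 3.20 and the other 5 by -0.39 to 0.36. With tetracycline the same 5 changed by 1.30 to 3.85 and the other 5 by -0.32 to 0.40. In bulk RNA such as this, fewer cells of a type and less RNA per cell cannot be told apart.

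**Figure D1:**
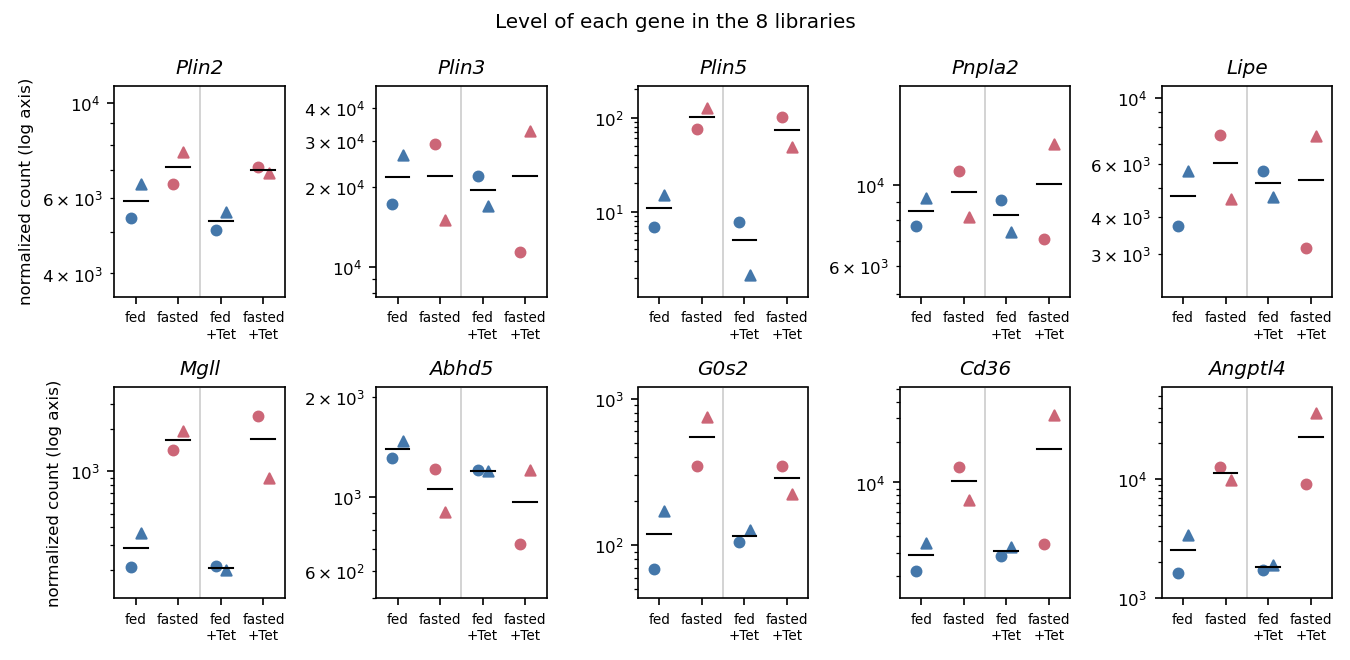
Normalized counts (log axis, its range set per gene) of the 10 genes in the 8 libraries, fed in blue and fasted in red, without and with tetracycline (+Tet), circles for library 1, triangles for library 2 and a bar for the mean of the 2. Plin5, Mgll, G0s2, Cd36 and Angptl4 lay higher in both fasted libraries than in both fed libraries of each table, and Cd36 with tetracycline did so narrowly in fasted library 1 (3472 against 3289 in the higher fed library). Plin2 did so as well, by 1.005-fold between the nearest libraries without and 1.23-fold with tetracycline.

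All 10 genes are protein coding, and their positions are those of GENCODE release 21 on GRCm38. Among the coat genes, Plin5 (ENSMUSG00000011305.12, chr17:56111601-56117596), a perilipin of oxidative tissues that tethers droplets to mitochondria, had the fewest counts of the 10 genes. Without tetracycline it had 7 and 15 counts for the fed against 83 and 117 for the fasted libraries. With tetracycline it had 10 and 2 counts for the fed against 122 and 35 for the fasted libraries. Every fasted library was thus above every fed library in counts and in normalized counts (2.16 to 15.1 fed, 48.2 to 126 fasted). The authors' deposited table gave a log2 change of 3.20 (SE 0.65, DESeq2 adjusted p 0.000153) without tetracycline and 3.85 (SE 0.93, adjusted p 0.00907) with it. Leaving out 1 library at a time kept the first past the table's call level, at 2.74 to 3.86. With tetracycline the log2 change stayed between 3.22 and 5.11, but it missed the call level without fasted library 1 (3.22), fed library 1 (5.11) or fed library 2 (3.24).

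Plin2 (ENSMUSG00000028494.13, chr4:86648386-86670060), the perilipin found on droplets of most cells, was abundant in every library. Its normalized counts were 5387 and 6460 for the fed against 6491 and 7676 for the fasted libraries without tetracycline. In mice given tetracycline they were 5044 and 5557 for the fed against 7083 and 6863 for the fasted libraries. The fasted libraries lay above the fed ones in both tables, by a margin of 1.005-fold between the nearest libraries without tetracycline and 1.23-fold with it. The log2 changes of 0.26 (95% interval -0.25 to 0.77) and 0.40 (-0.29 to 1.09) were not called, with adjusted p-values of 0.845 and 0.9999 from DESeq2.

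Plin3 (ENSMUSG00000024197.11, chr17:56277476-56292873), a perilipin that sits in the cytosol and joins newly forming droplets, had the highest counts of the coats. Its normalized counts without tetracycline were 17350.2 and 26590.2 for the fed against 29067 and 15086 for the fasted libraries. In the table with tetracycline they were 22117 and 16997 for the fed against 11394 and 32719.6 for the fasted libraries. Fed and fasted libraries overlapped in both tables, with the highest and the lowest value of each table both in fasted libraries. The log2 changes were 0.0070 (95% interval -0.70 to 0.71) and 0.17 (-0.94 to 1.29).

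Of the 3 lipases, only the last in the chain, Mgll (ENSMUSG00000033174.18, chr6:88724412-88828360), was called. Its normalized counts without tetracycline were 210.4 and 364 for the fed against 1425 and 1935 for the fasted libraries. With the antibiotic they were 212 and 199.5 for the fed against 2481 and 901 for the fasted libraries. The lowest fasted library was 3.92 times the highest fed library without and 4.25 times with tetracycline. The log2 change was 2.55 (SE 0.35, DESeq2 adjusted p 1.57e-10 in the authors' deposited table) without and 3.04 (SE 0.57, adjusted p 5.91e-05) with tetracycline. It held its call when any library was left out without tetracycline (2.21 to 3.0). With tetracycline it lost the call without fasted library 1, at 2.13. Exons of Gm26588, a gene on the opposite strand, overlap 167 bases (3.29%) of Mgll exons, and the library kit keeps no strand. Gm26588 had means of 27.7 and 31.8 normalized counts and was itself called higher, by 3.18 (SE 0.82, adjusted p 0.00771) and 3.83 (SE 0.95, adjusted p 0.0131), and its reads cannot be told apart from those of Mgll in the overlap.

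Pnpla2 (ENSMUSG00000025509.16, chr7:141455198-141460743) opens triglyceride hydrolysis and was abundant in every library. Its normalized counts were 7722 and 9231 for the fed against 10953 and 8192 for the fasted libraries without tetracycline. The corresponding values with tetracycline were 9078 and 7444 for the fed against 7099 and 13030.3 for the fasted libraries. The feeding states overlapped in both tables. The log2 changes of 0.18 (95% interval -0.36 to 0.72) and 0.28 (-0.61 to 1.18) were not called.

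Lipe (ENSMUSG00000003123.16, chr7:25379527-25398710) behaved likewise among the libraries. It had normalized counts of 3725 and 5691 for the fed against 7515 and 4595 for the fasted libraries without tetracycline, and of 5686 and 4663 for the fed against 3146 and 7489 for the fasted libraries with it. As for Pnpla2, fasted and fed values overlapped. The log2 changes were 0.36 (95% interval -0.29 to 1.02) and 0.039 (-0.98 to 1.06), neither of them called. Exons of 4732471J01Rik on the other strand overlap 15.6% of the exon bases of Lipe, but that gene's mean was 9.25 and 8.48 normalized counts.

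**Figure D2:**
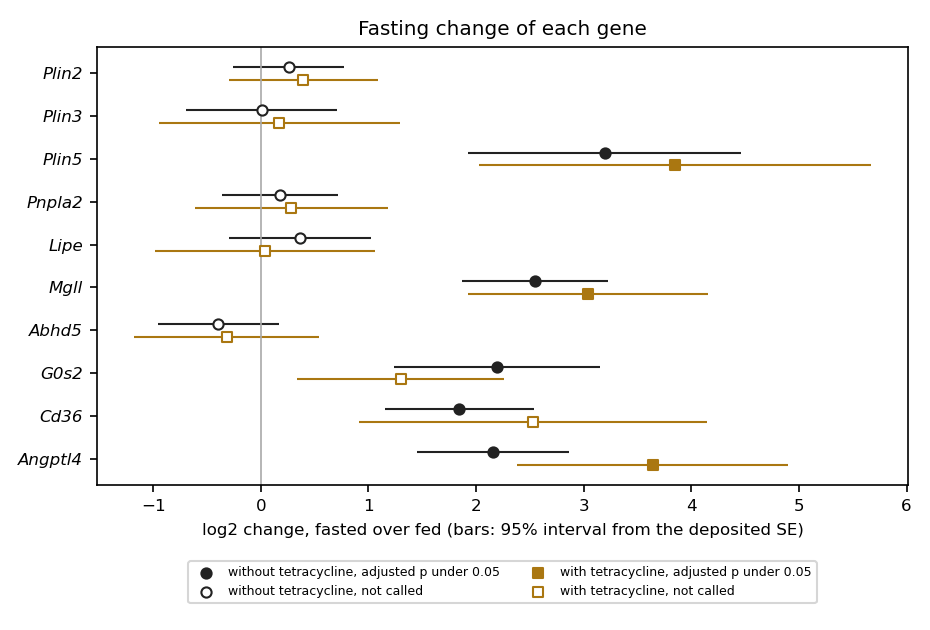
Deposited log2 change, fasted over fed, of the 10 genes without (circles) and with (squares) tetracycline, with bars for the 95% interval from the deposited standard error and filled symbols for an adjusted p under 0.05. Plin5, Mgll and Angptl4 are filled in both tables, G0s2 and Cd36 without tetracycline alone, and the intervals of the other 5 genes include 0.

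The inhibitor of Pnpla2, G0s2 (ENSMUSG00000009633.4, chr1:193272161-193273217), had 68.5 and 172 normalized counts for the fed against 345 and 755 for the fasted libraries without tetracycline. With tetracycline it had 106 and 127 for the fed against 348 and 223 for the fasted libraries. Both fasted libraries of each table were above both fed libraries. It rose without tetracycline by 2.19 on the log2 scale (SE 0.49, DESeq2 adjusted p 0.000934 in the authors' deposited table), a call lost without fasted library 2 (1.52) or fed library 1 (1.68). The change with tetracycline was 1.30 (SE 0.49) and was not called (adjusted p 0.465, unadjusted p 0.00808).

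The coactivator Abhd5 (ENSMUSG00000032540.17, chr9:122351608-122381524) was the 1 gene of the 10 with a negative log2 change. Its normalized counts without tetracycline were 1311 and 1471 for the fed against 1214 and 902 for the fasted libraries. With tetracycline they were 1206 and 1197 for the fed against 722 and 1208 for the fasted libraries. The fed libraries were the higher ones without tetracycline, and the states overlapped with it. Neither change was called, at -0.39 (95% interval -0.96 to 0.17) and -0.32 (-1.18 to 0.54). Exons of A730085K08Rik overlap 16.0% of its exon bases on the opposite strand, at a mean of 0.77 and 0.39 normalized counts.

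Cd36 (ENSMUSG00000002944.16, chr5:17781690-17888801), a membrane protein that takes up long-chain fatty acids, had 2189 and 3535 normalized counts for the fed against 13110.0 and 7447 for the fasted libraries without tetracycline. With tetracycline the fed libraries had 2839.6 and 3289 and the fasted libraries 3472 and 31897. Fasted library 1 with tetracycline was therefore only 1.06 times the higher fed library, while fasted library 2 was 9.19 times fasted library 1. The rise without tetracycline was 1.84 (SE 0.35, DESeq2 adjusted p 3.96e-05 in the authors' deposited table), and 1.38 without fasted library 1, short of the call level. With tetracycline the deposited change of 2.53 (SE 0.83) was not called (adjusted p 0.209, unadjusted p 0.00218), and it was 0.18 without fasted library 2.

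Angptl4 (ENSMUSG00000002289.17, chr17:33773750-33781830), a secreted protein that inhibits lipoprotein lipase and so limits fatty acid release from circulating triglyceride, had 1622 and 3402 normalized counts for the fed against 12573 and 9851 for the fasted libraries without tetracycline. In mice given tetracycline it had 1713 and 1909 for the fed against 9049 and 36129 for the fasted libraries. The lowest fasted library was 2.90 times the highest fed library without and 4.74 times with tetracycline. It rose by 2.16 (SE 0.36, DESeq2 adjusted p 7.82e-07 in the authors' deposited table) without and by 3.64 (SE 0.64, adjusted p 1.38e-05) with tetracycline. Leaving out each library in turn gave 1.72 to 2.79 without tetracycline, past the call level each time. With tetracycline the range was 2.32 to 4.32, and the call was lost without fasted library 2 (2.32).

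The 2 libraries of a feeding state differed most in fasted mice given tetracycline, where the median of the higher over the lower library was 2.23 for the 10 genes and 2.13 for 50 other genes of lipid droplets, triglycerides and fatty acid uptake. In the other states the medians were 1.5 (fasted) and 1.57 (fed) without and 1.18 (fed) with tetracycline, against 1.35, 1.25 and 1.14 for the other genes. Cd36, Angptl4, Plin3, Lipe, Pnpla2 and Abhd5 were higher in fasted library 2 with tetracycline, by 1.67-fold to 9.19-fold. Mgll, Plin5 and G0s2 were higher in fasted library 1, by 1.56-fold to 2.75-fold, and Plin2 was nearly level at 1.03-fold. Of the 50 other genes, 39 were higher in fasted library 2. Without tetracycline the same 6 genes were the ones higher in fasted library 1 and the same 4 in fasted library 2, by 1.18-fold to 2.19-fold. Of 49 other genes there, 29 were higher in fasted library 1. All 10 genes were higher in fed library 2 than in fed library 1 without tetracycline, as were 35 of the 49 other genes.

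**Figure D3:**
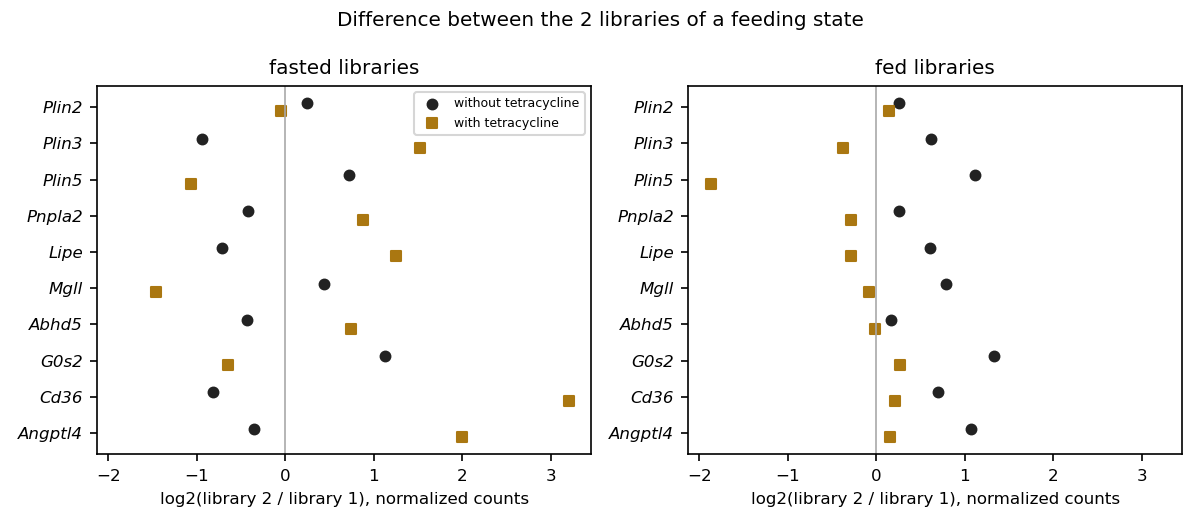
Log2 ratio of library 2 to library 1 in normalized counts for the 10 genes, in fasted (left) and fed (right) mice, without tetracycline (black circles) and with it (brown squares). Cd36, at 9.19-fold, and Angptl4, at 3.99-fold, spread widest between the fasted libraries with tetracycline, and all 10 genes lie right of 0 in the fed libraries without tetracycline.

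Markers of other cells differed between the same libraries. Summed normalized counts of the 2 Paneth cell markers, of 5, whose counts could be worked out (Paneth cells secrete antimicrobials at the crypt base) were 61465 and 10899 in fasted libraries 1 and 2 with tetracycline, against 9666 and 15087 in the fed ones. Without tetracycline they were 33186 and 34069 for the fasted against 12609 and 10712 for the fed libraries, and 4 of the 5 markers were called higher, against 0 with tetracycline. The median log2 change of the 5 Paneth cell markers was 1.15 without and 1.27 with tetracycline. The 5 crypt stem cell markers had summed means of 83404 fed and 64079 fasted without tetracycline and of 75500.4 fed and 56919 fasted with it, and 0 were called in either table. The median log2 change of these 5 was 0.12 without and 0.26 with tetracycline, opposite in sign to the change of the sums. The 4 of them whose counts could be worked out summed to 11177 and 7488 for the fed against 9744 and 11035 for the fasted libraries without tetracycline, and to 6503 and 11350 for the fed against 15039 and 5137 for the fasted libraries with it. Fasted library 1 with tetracycline was thus the higher one in Paneth and stem cell markers, as in Mgll, Plin5 and G0s2. It was also the higher one in macrophage (1937 against 537), endothelial (456 against 143), lymphocyte, erythrocyte, and smooth muscle and fibroblast markers. The 1 epithelial marker whose counts could be worked out was higher there too (23549 against 15054). The proximal and distal small intestine genes read below were higher in fasted library 2. Of 9 enterocyte markers, 1 was called higher without and 0 with tetracycline, with median log2 changes of 0.61 and 0.98. The summed means of these 9 were 1418503 fed and 2057675 fasted without tetracycline, and 1119446 fed and 2137483 fasted with it. The 7 macrophage markers summed to 860.4 to 1366 in fasted and 1800.2 to 3515 in fed libraries without tetracycline, and to 537 to 1937 in fasted and 2624 to 5649 in fed libraries with it (1 called lower without and 0 with tetracycline). The endothelial markers (5 of 7 listed without and 6 with tetracycline) summed to 143 to 771 over the 8 libraries, and 0 of them were called. Macrophage and endothelial cells also express Cd36, and the part of these cells in its level was not tested. The 6 lymphocyte markers summed to 9457 and 12229 for the fed against 3886 and 7314 for the fasted libraries without tetracycline (3 called lower). With tetracycline they summed to 38749 and 9857 for the fed against 12247 and 1973 for the fasted libraries, which overlapped (0 called). For the 4 listed erythrocyte markers, of 5, the summed means were 190047 fed and 29612 fasted without tetracycline (4 called lower) and 107329 fed and 42246 fasted with it (0 called). Those whose counts could be worked out summed to 11711 and 42539 for the fed against 2682 and 3905 for the fasted libraries without tetracycline (2 markers), and to 62834 and 42376 for the fed against 35946 and 5759 for the fasted libraries with it (3 markers). The 7 smooth muscle and fibroblast markers overlapped between the states in both tables, at 275 and 993 for the fed against 125 and 351 for the fasted libraries without tetracycline (2 called lower), and at 588 and 318 for the fed against 564 and 129 for the fasted libraries with it (0 called).

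Genes of gut segments were read in lists added after the values were seen. The 6 distal small intestine genes summed to 21859 and 25023 for the fed against 7148 and 3531 for the fasted libraries without tetracycline. With tetracycline they summed to 18269 and 12808 for the fed against 4744 and 11286 for the fasted libraries. The sums of the fasted libraries were thus the lower ones in both tables, while the median log2 change of the 6 genes was -0.68 without and 0.017 with tetracycline, and 1 gene was called lower without and 0 with it. The 6 proximal genes had summed means of 79345 fed and 94188 fasted without tetracycline and of 76572 fed and 59978 fasted with it, with median log2 changes of -0.22 and -0.61. The 5 of them other than Lct (lactase), whose counts could not be worked out by library, summed to 21670 and 25943 for the fed against 20257 and 20488 for the fasted libraries without tetracycline, and to 31007 and 37004 for the fed against 16031 and 23913 for the fasted libraries with it, and 1 proximal gene was called lower in each table. The part of cell makeup or gut segment in the changes of the 10 genes was not tested.

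Fat cells are rich in Lipe, Mgll, G0s2 and Pnpla2, so their markers were read too. Adipoq, the adipocyte hormone adiponectin, had 0 counts in all 4 fasted libraries and 0 to 5 counts in the fed ones, and Lep was in neither table. The adipocyte markers other than Cidec (7 of 9 listed without and 8 with tetracycline, a list trimmed after the values were seen) summed to 19.3 to 95.3 normalized counts over the 8 libraries. Cidec, a droplet fusion protein also made by enterocytes, had 1634 to 6623 normalized counts over the same libraries.

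Ratios of counts within a library do not depend on the depth scale, and 7 of them were computed. Per 100 Pnpla2 counts there were 17.0 and 15.9 Abhd5 counts for the fed against 11.1 and 11.0 for the fasted libraries without tetracycline. With tetracycline there were 13.3 and 16.1 for the fed against 10.2 and 9.27 for the fasted libraries. The ratio of coactivator to lipase was thus lower in each of the 4 fasted than in each of the 4 fed libraries. The 95% intervals (exact Clopper-Pearson, covering counting error only) reached no higher than 11.8 in the fasted and no lower than 12.6 in the fed libraries.

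Without tetracycline the ratio of the inhibitor to its lipase was the higher one in fasted libraries. G0s2 counts per 100 Pnpla2 counts were 0.887 and 1.86 for the fed against 3.15 and 9.22 for the fasted libraries without tetracycline. They were 1.16 and 1.71 for the fed against 4.90 and 1.71 for the fasted libraries with tetracycline, where fasted library 2 was level with fed library 2. Mgll counts per 100 Lipe counts were 5.65 and 6.39 for the fed against 19.0 and 42.1 for the fasted libraries without tetracycline. In the table with tetracycline they were 3.73 and 4.28 for the fed against 78.8 and 12 for the fasted libraries. The share of the last lipase against the middle one was higher in each of the 4 fasted libraries than in any fed library.

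**Figure D4:**
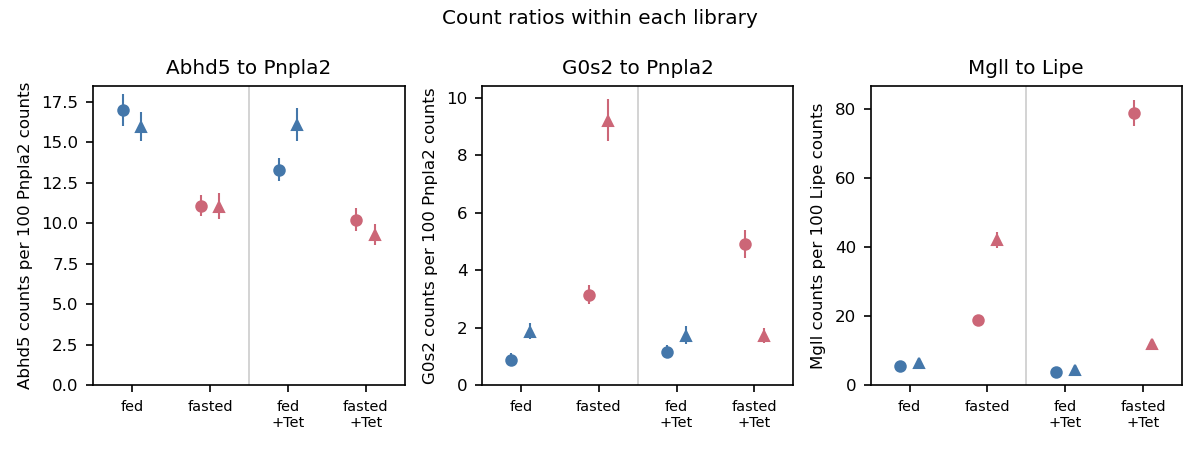
Counts of Abhd5 per 100 Pnpla2 counts, G0s2 per 100 Pnpla2 counts and Mgll per 100 Lipe counts in the 8 libraries, fed in blue and fasted in red, circles for library 1 and triangles for library 2, with bars for the 95% counting interval. The Abhd5 ratio is 9.27 to 11.1 in the fasted and 13.3 to 17.0 in the fed libraries, and the Mgll ratio is 12 to 78.8 and 3.73 to 6.39.

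Among the coats, Plin5 counts per 100 Plin3 counts were 0.040 and 0.057 for the fed against 0.262 and 0.834 for the fasted libraries without tetracycline, and 0.036 and 0.013 for the fed against 0.881 and 0.147 for the fasted libraries with it. Plin5 remained under 1% of Plin3 in counts throughout. Plin2 counts per 100 Plin3 counts overlapped between the states, at 21.0 to 62.2 in fasted and 22.8 to 32.7 in fed libraries over both tables. For Cd36 the figure per 100 Plin3 counts was 12.6 to 19.3 in the 4 fed and 30.5 to 97.5 in the 4 fasted libraries. Angptl4 counts per 100 Cd36 counts were 74.1 and 96.2 for the fed against 95.9 and 132 for the fasted libraries without tetracycline, and 60.3 and 58.1 for the fed against 261 and 113 for the fasted libraries with it.

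Divided by exon length, levels can be ordered between genes. In fed mice without tetracycline the order of mean levels, in normalized counts per kilobase, was Plin3 (5803), Pnpla2 (2807), Plin2 (1687), Lipe (800), Cd36 (797), Angptl4 (709), Abhd5 (234), G0s2 (138), Mgll (56.5) and Plin5 (5.27). Neighbours in that order from Lipe to Angptl4 overlapped between libraries (633 to 967, 610 to 985 and 458 to 961). The order in fed mice given tetracycline was the same. In fasted mice without tetracycline Angptl4 (3166) and Cd36 (2863) stood beside Pnpla2 (3170), with overlapping libraries, and Mgll (331) stood above Abhd5 (178). Fasted mice given tetracycline had Angptl4 (6379, libraries 2555 and 10203), Plin3 (5826) and Cd36 (4926, libraries 967 and 8885) at the top, and the libraries of all 3 overlapped. Plin5 was last in each of the 4 groups, at 48.4 and 35.6 in fasted mice without and with tetracycline and 2.40 in fed mice with it.

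The change with tetracycline minus the change without it was tested per gene by a Wald test on the deposited changes and standard errors, adjusted by Benjamini-Hochberg over 17571 genes. It called 0 of the 10 genes, and 0.0228% of all genes. At an unadjusted p under 0.05 it held 1 of the 10, Angptl4, against 1.05% of all genes. The fasting change of Angptl4 was larger with tetracycline by 1.48 (SE 0.74, 95% interval 0.037 to 2.93, unadjusted p 0.0444, Wald adjusted p 0.99997). Without fasted library 2 of the table with tetracycline that difference was 0.16, and over all 8 libraries left out in turn it was 0.16 to 2.16. That of G0s2 was smaller by a difference of -0.90 (95% interval -2.25 to 0.46). The differences were 0.65 (-1.57 to 2.87) for Plin5, 0.49 (-0.81 to 1.79) for Mgll and 0.68 (-1.08 to 2.44) for Cd36. The difference turned to -1.66 for Cd36 without fasted library 2 with tetracycline, to -0.42 for Mgll without fasted library 1 with tetracycline, and to -0.012 for Plin5 without fed library 2 without tetracycline. For G0s2 it was -1.71 to -0.22 over the left-out libraries. The other 5 genes differed by -0.32 to 0.17, and by -1.08 (Lipe) to 0.74 (Plin3) with a library left out. The intervals are wide, and a missed threshold does not show that fasting acted alike in both settings.

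Levels with against without tetracycline cross separately scaled tables and were not tested. The log2 ratios of the group means (pseudocount 1) were centred on the median of 21925 genes, a shift of 0.060 in fed and 0.064 in fasted mice. In fed mice 1 of the 10 genes differed by 1 or more, Plin5 at -1.03, against 11.8% of all genes in either direction and 3.40% lower, and its fed libraries with tetracycline had 10 and 2 counts. In fasted mice it was also 1 gene, G0s2 at -1.01, against 7.05% in either direction and 3.92% lower. Angptl4 was at -0.53 in fed and 0.95 in fasted mice, and Cd36 at 0.04 and 0.72. Without fasted library 2 of the table with tetracycline, Angptl4 in fasted mice was at -0.37 and Cd36 at -1.63. Without fasted library 2 of the table without tetracycline, G0s2 in fasted mice was at -0.34. With a library left out, Plin5 in fed mice ranged from -1.99 to -0.46 and Angptl4 in fed mice from -0.97 to 0.10. Without the centring Plin5 was at -0.97 and G0s2 at -0.94, while Angptl4 in fasted mice was at 1.01. All remaining centred values of the 10 genes lay between -0.54 and 0.08. With a library left out these ran from -1.12 (Plin5 in fasted mice) to 0.70 (G0s2 in fed mice). Plin3 in fasted mice ran from -1.02 to 0.50.

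Another 61 genes of lipid droplets, triglyceride synthesis, hydrolysis and fatty acid uptake were read beside these 10, and 55 were tested in each table. Without tetracycline 5 of the 55 were called, all higher, against 2.27% of all genes, and the median log2 change was 0.08. With tetracycline 1 of the 55 was called, against 0.600%, and the median was 0.46, with 46 of 55 changes above 0. At an unadjusted p under 0.05 it was 8 of the 55 without tetracycline, against 10.8% of all genes, and 9 with it, against 5.34%. Of 10 genes of fatty acid uptake and activation 4 were called higher without tetracycline and 0 with it, at median log2 changes of 0.34 and 0.82. None of the 12 triglyceride synthesis genes, the 10 other lipases, the 3 droplet formation genes, the 3 lipoprotein lipase partners and the 5 nuclear receptors or coactivators was called in either table (DESeq2 in the authors' deposited tables).

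The genes of that list called in 1 table or both act at the droplet surface or on fatty acids. Hsd17b11, a dehydrogenase of the droplet surface, had 13717 and 22849 normalized counts for the fed against 49683 and 47634 for the fasted libraries without tetracycline, and 14569 and 18129 for the fed against 36689 and 66803 for the fasted libraries with it. It was the 1 gene of the list called in both tables, at 1.41 (SE 0.30, DESeq2 adjusted p 0.000501) and 1.66 (SE 0.46, adjusted p 0.0463), the second a call that was lost when p-values were adjusted over every row with a p or read at an adjusted p under 0.01. Slc27a1, a fatty acid transporter, had 528 and 504 normalized counts for the fed against 1759 and 2585 for the fasted libraries without tetracycline, and rose by 2.07 (SE 0.30, adjusted p 2.9e-09). Its change with tetracycline was 1.52 (SE 0.53, adjusted p 0.302). Slc27a2, another transporter of that family, rose by 1.61 (SE 0.27, adjusted p 8.15e-07) and had a log2 change of 1.74 (SE 0.57, adjusted p 0.209) with tetracycline. Acsl1, which activates fatty acids by joining them to coenzyme A, rose by 1.10 (SE 0.25, adjusted p 0.00159), and Fabp1, a cytosolic fatty acid carrier and enterocyte marker, rose by 1.08 (SE 0.27, adjusted p 0.00656). With tetracycline these 2 had log2 changes of 1.06 (SE 0.52) and 0.98 (SE 0.38) and were not called.

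**Figure D5:**
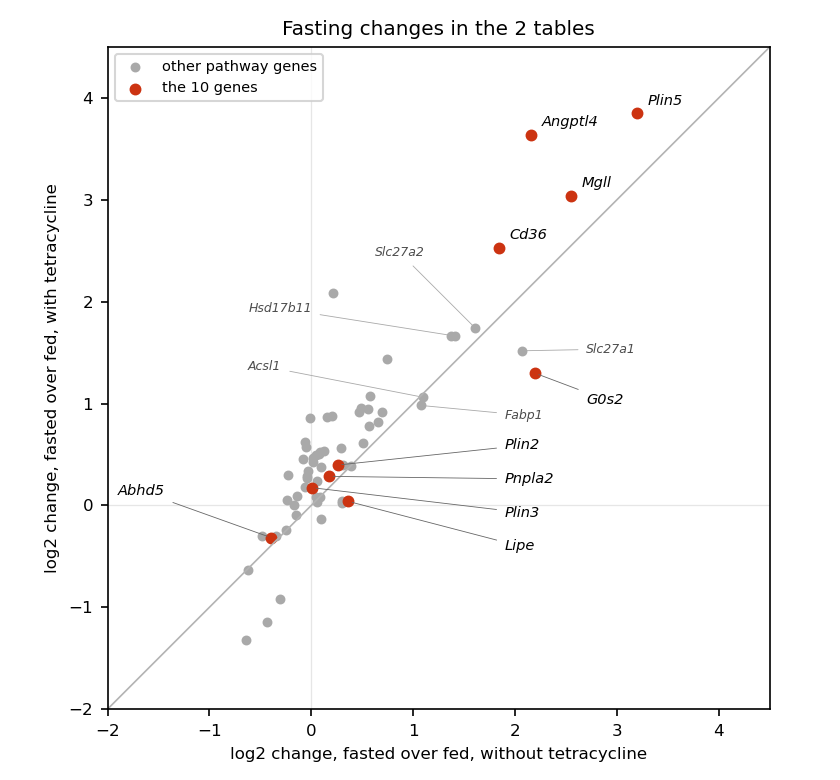
Deposited log2 change, fasted over fed, without (x axis) and with (y axis) tetracycline for the 10 genes (red) and 55 other genes of lipid droplets, triglycerides and fatty acid uptake tested in both tables (grey), with the line of equal change. Angptl4 lies farthest above the line among the 10, at 2.16 and 3.64, and G0s2 lies below it, at 2.19 and 1.30.

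None of the close relatives of the 10 genes that had an adjusted p was called, and Plin1 and Pnpla3 had none. Plin1, the fat cell perilipin, had 0 to 8 counts in each library, and Plin4 had 4 to 20 counts without and 7 to 54 with tetracycline, with log2 changes of 1.37 (SE 1.04) and 1.66 (SE 1.12). Pnpla3 had 0 to 8 counts. The log2 changes were 0.05 and 0.04 for Pnpla8, 0.49 and 0.96 for Abhd6, and 0.08 and 0.53 for Angptl8. Among receptors known to act on these genes, the log2 changes, none of them called, were 0.50 (SE 0.26) and 0.61 (SE 0.57) for Ppara, -0.43 (SE 0.34) and -1.14 (SE 0.35) for Ppard, and -0.49 (SE 0.29) and -0.30 (SE 0.44) for Pparg.

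The fasting pattern of Plin2 was a common one. The 5 genes nearest to it in the pair of deposited log2 changes, of 9193 genes whose mean reached 500 in both tables, were Slc43a2, Esrp2, Klhl21, Chkb and Eif2a, at distances of 0.012 to 0.016 on the log2 scale. A total of 1088 of those genes lay within 0.25 of Plin2.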

How the data were processed

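Per the labels' protocols, libraries were made with a kit that keeps no strand. Salmon, DESeq2 and the build mm10 are named in the submitters' processing notes; versions, the annotation release and the libraries fitted are not given in the sources used here. Per the file headers, the deposited columns are those DESeq2 writes. The mean deposited by the authors is a signal, the average over libraries of depth-scaled counts. The fold change and its standard error that the authors deposited are on the log2 scale. The deposited test statistic is a score, the change over its standard error, and the p-value columns deposited by the authors carry a Benjamini-Hochberg adjustment. The last 2 relations were tested on the values and held.

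Computations used Python 3.11.15, numpy 2.4.6, pandas 2.3.3 and scipy 1.17.1. The 10 genes, the lists and the markers were chosen with earlier results of these data known. All 10 are described; from the other lists, the called genes and close relatives are named, and for Plin2 the 5 nearest genes. A call is the authors' adjusted p under 0.05. Whole counts per library were worked out from the mean, the fold change and its error for genes with a mean of up to 35000, a method tested on simulated data. For the 10 genes the deposited log2 change was matched within 4.67e-06. Libraries are shown singly, and a count model across genes was not run. Library left-out values came from a negative binomial fit with the dispersion held, which assumes that a lone library varies like the others, set against the largest unadjusted p called (0.00113 without and 0.000297 with tetracycline). Gene positions and exon lengths are from GENCODE mouse release 21 on GRCm38, which matched 99.3% and 99.2% of the identifiers without their version and 0.0509% and 0.0498% with it, so it is not the authors' release. Intervals are 95% and use 1.96 standard errors.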

Additional observations from a re-analysis of the deposited data

How the results depend on the processing

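No paired analysis was possible because each group has 1 labelled sample and the deposited values are comparisons. The library left-out counts, differences and levels were added after seeing the data. Leaving out each library in turn, the called members of the 10 numbered 4 to 5 without and 1 to 2 with tetracycline, against 5 and 3 reported. The lowest count, 1, came without fasted library 1 with tetracycline. At an unadjusted p under 0.05 the counts were 5 of 10 with tetracycline, 8 of 55 other genes without (10.8% of all genes) and 9 of 55 with tetracycline (5.34%), and 1 of 10 for the difference of the changes. The 1 other gene called with tetracycline, Hsd17b11, became 0 at an adjusted p under 0.01 or when adjusted over every row. With a mean of at least 50, the count of the 10 with tetracycline was 2, as Plin5 was not kept. For levels with against without tetracycline in fed mice, the 1 gene differing became 0 without centring, with centring on genes with a mean of at least 500, or with pseudocount 10. In fasted mice the 1 gene became 0 with pseudocount 10 and 3 at 1.5-fold, and without centring it was Angptl4 instead of G0s2. Leaving out each library in turn, the counts were 0 to 1 in fed and 0 to 4 in fasted mice. Of the further values for single genes, 189 moved by less and 31 by more than their standard error, and 0 called fasting changes changed sign. With a library left out, the uncalled changes of Plin3, Pnpla2 and Lipe fell on both sides of 0 in both tables, as did that of Abhd5 with tetracycline (-0.73 to 0.008). Depth limits Plin5 in fed mice, at 2 to 15 counts.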
